A study of Homo sapiens with 6 samples.

Results

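The NFAT transcription factors, the calcineurin phosphatase that activates them and the RCAN proteins that bind calcineurin were followed in A375 cells, a human melanoma line. The genes are NFATC1, NFATC2, NFATC3, NFATC4, NFAT5, RCAN1, RCAN2, PPP3CA, PPP3CB and PPP3CC. Every probe set annotated to exactly 1 of these 10 symbols was taken, which gave 49 of the 49293 probe sets of the table, and all 10 genes had at least 1. The genes were chosen by their measured difference between knockdown and control arrays, which was already known, in particular that the probe sets of NFATC2 disagree, so their values in that contrast are given as a description.

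Total RNA was measured on 6 Affymetrix arrays, 3 biological replicates of A375 cells in which a short hairpin RNA stably lowers MAP4K5 (knockdown) and 3 of A375 cells (control). MAP4K5 is a Ste20-like kinase that can activate JNK signalling. Per the labels the cells had no treatment, and no calcium ionophore, phorbol ester or calcineurin inhibitor is named there. The sources used here do not say whether the control cells carried a hairpin, how many clones or hairpins the knockdown line holds, or whether replicates were grown separately. Loss of MAP4K5 and other effects of the hairpin or of selection therefore cannot be told apart, and p-values measure only the spread between these arrays, which may be technical.

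Calcineurin is a calcium- and calmodulin-dependent protein phosphatase made of a catalytic A chain, encoded by PPP3CA, PPP3CB or PPP3CC, and a regulatory B chain. When cytosolic calcium stays high it dephosphorylates the NFATC proteins, which then enter the nucleus and bind DNA at sites with the core GGAAA, often beside AP-1 proteins. NFAT5 shares the DNA-binding domain but lacks the calcineurin docking region and responds to osmotic stress. RCAN1 and RCAN2 bind calcineurin and can inhibit it, and an internal promoter of RCAN1 is itself a known target of calcineurin and NFAT. NFATC2 has been linked to dedifferentiation and invasion in melanoma.

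MAP4K5 stood at 19.7, 18.8 and 20.3 in the knockdown arrays, against 77.7, 78.1 and 76.3 in the control arrays (brightest set of 3). These values are intensities on a linear scale, and the difference was -1.98 ± 0.08 on the log2 scale (SE), with a limma adjusted p of 5.6e-05. Array medians lay between 4.85 and 4.94. Control replicate 2 stood apart from the other controls. The SD of its log2 difference from the knockdown arrays was 0.26 to 0.27, against 0.30 and 0.31 from the other controls, while controls 1 and 3 differed by 0.23. The value of control 2 is therefore given for each gene. Melanoma lineage markers were present in part: 5 of 9 measured (CSPG4, MIA, MITF, S100B and SOX10) lay above the table's median intensity of 4.88, and MLANA, PMEL, TYR and TYRP1 lay below it. Their summed level was 435 to 462 in knockdown and 503 to 711 in control arrays, but single markers differed in direction. By limma 4 of the 9 were called: MITF, the melanocyte lineage factor, rose (0.99 on the log2 scale), while S100B (-1.31), MIA (-0.85) and SOX10 (-0.54) fell, and the calls of MITF, MIA and SOX10 were kept only without control 2 among the fits that left out 1 array. Of 7 leukocyte markers 0 lay above that median, with sums of 18.5 to 19.4 in knockdown and 18.2 to 19.1 in control arrays. The fibroblast markers had 1 of 5 above it and 0 called, with sums of 18.8 to 19.6 in knockdown and 21.6 to 21.8 in control arrays. The keratinocyte markers had 2 of 5 above it, with sums of 172 to 188 in knockdown and 123 to 147 in control arrays. KRT10 made up most of these sums. By limma KRT14 (1.09) and KRT10 (0.43) were called higher, and CDH1, KRT1 and KRT5 were dim and not called. The call of KRT10 was kept only without control 2, and that of KRT14 was lost without knockdown replicate 1 or 2. The part of these lineage genes in the differences of the NFAT and calcineurin genes was not tested.

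RCAN1 and NFATC2 were the members whose levels moved most, both downwards in the knockdown arrays. RCAN1 was 2.60-fold to 3.63-fold lower at its 4 brightest probe sets, and NFATC2 was 8.19-fold lower at its single bright probe set. The NFATC2 set was called by limma, while no RCAN1 set was called in the fit of all arrays. Against control 2 alone the same 4 RCAN1 sets were only 1.29-fold to 1.69-fold lower, and the NFATC2 set 5.62-fold. Among the other 40 probe sets, of 8 genes, no log2 fold change exceeded 0.38 in size. In such bulk RNA fewer cells of a type and less RNA per cell cannot be told apart. The median over all 49 probe sets was 0.0035 on the log2 scale, against 0.0048 over the whole table. Of the 49, 5 changed at least 2-fold (a log2 fold change of 1 or more in size), against 0.96% of all probe sets. These were 4 sets of RCAN1 and 1 of NFATC2. The count rests on the contrast that was known when the genes were chosen, so it is a description.

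By limma with Benjamini-Hochberg adjustment over all probe sets, 1 of the 49 passed the threshold of 0.05, against a background of 4.43% of the whole table, and that 1 was the bright NFATC2 probe set. At an unadjusted p under 0.05, 4 of the 49 were higher and 8 lower, against 9.75% of the table higher and 9.74% lower. Without control replicate 2, 7 of the 49 passed, against 13.4% of the table: 5 of RCAN1, 1 of NFATC2 and, upwards, 1 of NFATC3. At the brightest probe set of each gene 2 of the 10 genes passed, NFATC2 and RCAN1, against 7.83% of all genes. The 3 knockdown values lay outside the range of the 3 control values at 15 of the 49, 10 below and 5 above, against 23.9% of the table, 11.7% below and 12.1% above. These counts rest on the contrast that was known when the genes were chosen.

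**Figure D1:**
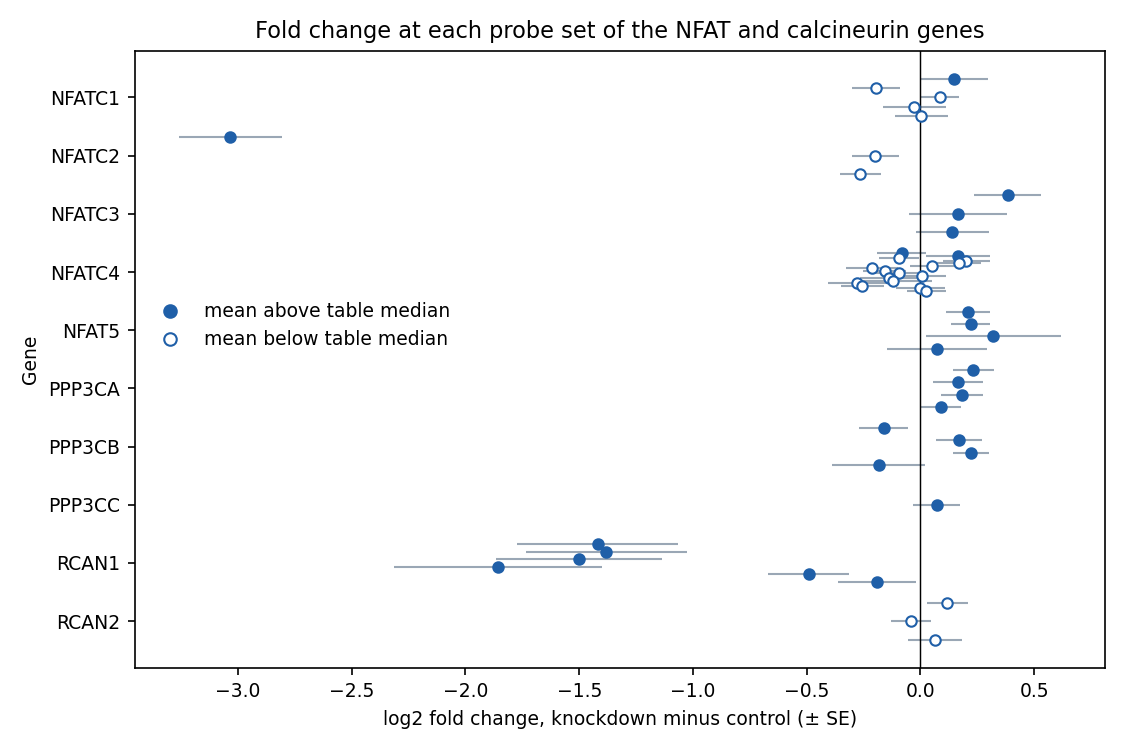
Log2 fold change (x axis, knockdown minus control, ± SE, 3 arrays a group) at each of the 49 probe sets, by gene. Filled points have a mean above the table's median probe set and open points below it. The bright NFATC2 probe set at -3.03 and 4 RCAN1 probe sets between -1.86 and -1.38 lie apart from the other members.

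NFATC2, also called NFAT1, is the NFATC protein best known from T cells. At probe set 11763307_s_at it measured 8.62, 6.63 and 9.20 in the knockdown arrays, against 74.2, 45.4 and 85.6 in controls 1, 2 and 3. The groups did not overlap, and control 2 was the lowest control. The log2 fold change was -3.03 ± 0.23 (SE), and it ranged from -3.30 to -2.85 over the 6 fits that left out 1 array, with the threshold passed in each. With 10 added to each intensity before the log it was -2.08, or 4.22-fold. Against control 2 alone it was -2.49.

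The other NFATC2 probe sets carried little signal. Probe set 11762151_a_at measured 2.12, 2.60 and 2.49 in knockdown arrays, against 2.85, 2.64 and 2.75 in control arrays, a log2 fold change of -0.20 ± 0.10. Probe set 11738814_a_at measured 2.36, 2.27 and 2.22 in knockdown arrays, against 2.64, 2.63 and 2.98 in control arrays, a log2 fold change of -0.26 ± 0.09. In both the knockdown values lay below the control values, as at 11.7% of all probe sets, and neither passed the threshold. With 10 added to each intensity before the log the fold changes were -0.04 and -0.05. Their means stood at percentiles 16.5 and 14.1 of all probe sets, while the mean of the first stood at percentile 72.3. The sign was thus the same at all 3, but at the dim sets the difference was small and not called. An ID ending in _s_at marks a probe set that can bind several transcripts. The sources used here do not say which NFATC2 transcripts each set reads, or whether the bright set also reads a transcript of another gene.

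RCAN1, the calcineurin-binding inhibitor, was read by 6 probe sets. At the brightest, 11733796_s_at, it measured 200.4, 215 and 212 in the knockdown arrays, against 760.4, 278 and 826 in controls 1, 2 and 3. Probe set 11743733_s_at gave 186, 194 and 189.8 in knockdown arrays, against 668, 245 and 734 in control arrays. Probe set 11743732_a_at gave 169, 162 and 156 in knockdown arrays, against 623, 223 and 701 in control arrays. In all 3 sets the knockdown arrays lay below every control, and control 2 lay near them rather than near controls 1 and 3. The log2 fold changes were -1.42 ± 0.35, -1.38 ± 0.35 and -1.50 ± 0.37.

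Probe set 11733797_a_at of RCAN1 measured 17.6, 18.7 and 8.76 in knockdown arrays, against 86.5, 24.0 and 66.1 in control arrays, a log2 fold change of -1.86 ± 0.46. The groups did not overlap there either, and knockdown replicate 3 was the lowest value. The remaining sets were the least bright of the 6, still above the table's median, and their groups overlapped. Probe set 11763514_x_at gave 6.49, 7.45 and 6.61 in knockdown arrays, against 12.1, 7.11 and 10.4 in control arrays (-0.49 ± 0.18), and 11760418_a_at gave 4.14, 6.06 and 6.30, against 7.15, 5.38 and 6.11 (-0.19 ± 0.17).

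How far RCAN1 was lower depended on the control it was set against. At the 4 brighter sets control 2 held 31.5% to 35.1% of the mean of controls 1 and 3. The knockdown mean held 19.7% to 27.0% of that same mean, and 62.4% to 77.3% of the level of control 2. The log2 difference was -2.41 to -1.89 without control 2 and -0.76 to -0.37 against control 2 alone. None of the 6 passed the threshold in the fit of all 6 arrays, and 5 passed it without control 2. For NFATC2 the same comparison left a larger gap: at the bright set control 2 held 56.8% of the mean of controls 1 and 3, and the knockdown mean held 18.0% of control 2.

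**Figure D2:**
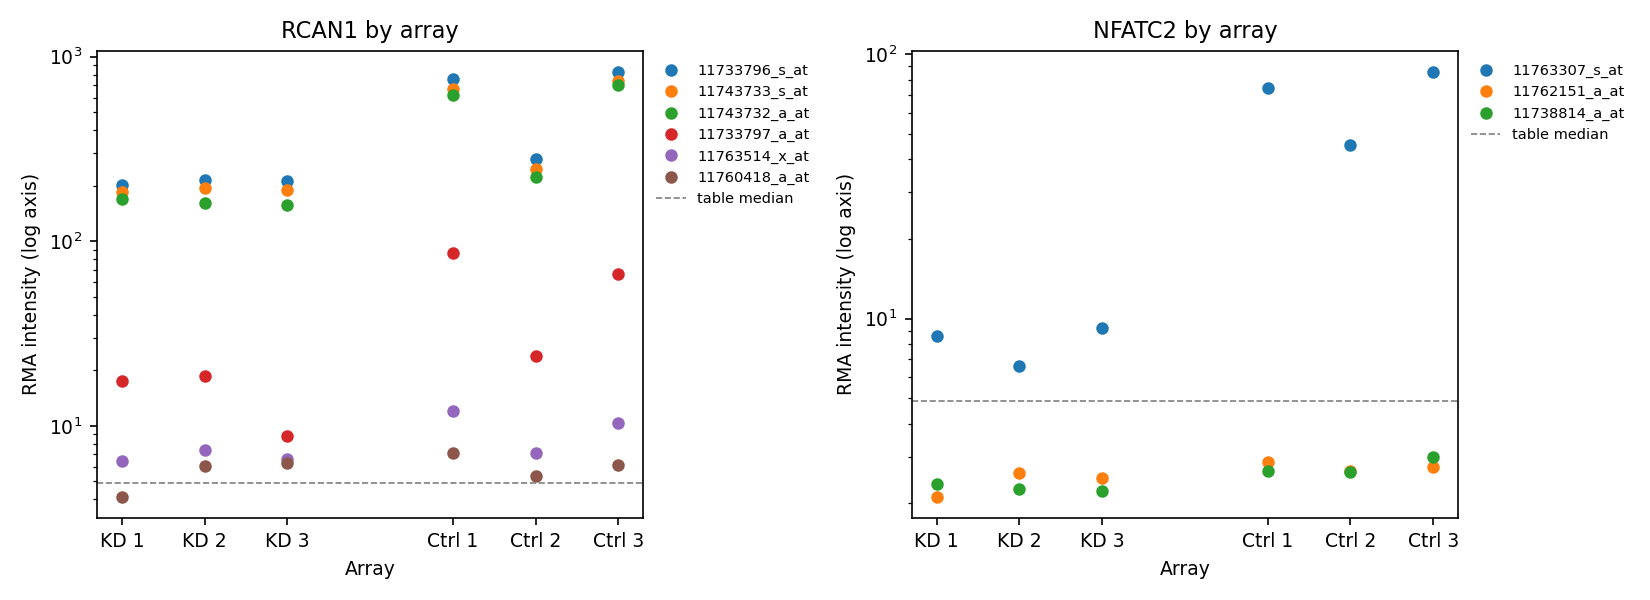
RMA intensity (y axis, log scale) of RCAN1 and NFATC2 in each array, 1 point per array and probe set, with the 3 knockdown arrays (KD) left of the 3 control arrays (Ctrl). The dashed line is the table's median probe set, 4.88. Control 2 lies close to the knockdown arrays for RCAN1 (278 against 200.4 to 215 at the brightest set) and with the controls for NFATC2 (45.4 against 6.63 to 9.20).

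Because these genes held the largest differences, the sequences before their annotated starts are shown, from RefSeq on GRCh38.p14. Windows were found for 6 of the 10 genes by symbol (RCAN2, NFATC4, NFATC3, NFATC1, NFATC2 and RCAN1), 17 in all, and the 250 bases before each start were searched. The NFAT core GGAAA was sought on both strands (GGAAA or TTTCC), the AP-1 motif TGANTCA and the cyclic AMP response element TGACGTCA, which is its own reverse complement. Of the 6 RCAN1 windows the first and the one with the most matches are shown, and of NFATC2 both, since they differ in the NFAT core. They are printed 5′ to 3′ in lower case with the GGAAA or TTTCC matches in capitals. The windows lie for RCAN1 at chr21:34526823-34527072 and chr21:34615114-34615363 and for NFATC2 at chr20:51562840-51563089 and chr20:51542720-51542969, all on the minus strand.
RCAN1 internal start: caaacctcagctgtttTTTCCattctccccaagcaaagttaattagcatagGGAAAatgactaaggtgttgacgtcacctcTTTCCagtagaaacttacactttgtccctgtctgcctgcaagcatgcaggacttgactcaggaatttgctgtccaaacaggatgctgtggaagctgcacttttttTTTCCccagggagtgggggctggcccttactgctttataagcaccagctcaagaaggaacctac
RCAN1 most upstream start: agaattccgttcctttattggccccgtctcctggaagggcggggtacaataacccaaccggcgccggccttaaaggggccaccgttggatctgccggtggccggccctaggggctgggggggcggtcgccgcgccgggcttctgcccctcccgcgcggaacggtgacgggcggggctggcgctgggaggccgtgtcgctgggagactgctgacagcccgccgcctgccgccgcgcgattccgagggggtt
NFATC2 upstream start: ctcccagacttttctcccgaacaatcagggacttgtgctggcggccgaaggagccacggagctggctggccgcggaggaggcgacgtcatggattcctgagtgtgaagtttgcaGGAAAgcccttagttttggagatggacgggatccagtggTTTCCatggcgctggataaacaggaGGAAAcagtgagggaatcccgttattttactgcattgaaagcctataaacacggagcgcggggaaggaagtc
NFATC2 downstream start: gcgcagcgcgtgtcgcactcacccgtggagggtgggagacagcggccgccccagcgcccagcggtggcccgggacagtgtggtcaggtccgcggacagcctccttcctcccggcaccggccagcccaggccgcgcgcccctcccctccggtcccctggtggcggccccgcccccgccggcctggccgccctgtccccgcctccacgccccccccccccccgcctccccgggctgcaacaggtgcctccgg

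The internal RCAN1 window, picked as the one with the most matches of 6, held 4 GGAAA cores. This count was reached by 1.87% of the 35116 windows searched over all genes. Shares given here are per window and do not allow for picking the best of several. It also held 1 AP-1 motif, which 6.57% of all windows hold, and 1 cyclic AMP response element, which 1.65% hold, whose first base lies at position -181 from the start. The other 5 RCAN1 windows held 0 GGAAA cores, and 1 of them held an AP-1 motif. The upstream NFATC2 window held 3 cores, a count reached by 7.12% of all windows, and the downstream window held 0. Overall 6 of the 17 windows held at least 1 core, against 55.6% of all windows. A match describes the letters in the window only, and the sources used here do not say which of these starts the probe sets read.

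The other NFATC factors showed smaller differences. NFATC3, which acts in developing T cells and in muscle and vessel, measured 57.4, 48.9 and 47.5 in the knockdown arrays, against 33.5, 48.8 and 36.7 in the control arrays, at its brightest set 11719501_a_at. Control 2 lay inside the knockdown range, and the log2 fold change was 0.38 ± 0.15, 0.54 without control 2 and 0.07 against control 2 alone. It passed the threshold only without control 2. The other NFATC3 sets were 0.17 and 0.14 higher on the log2 scale, with overlapping groups.

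NFATC1, known from osteoclasts and heart valves, had 5 probe sets with values between 2.17 and 6.25, and only 1 of their means lay above the table's median. At that set, 11731281_a_at, it measured 5.32, 5.79 and 5.44 in knockdown arrays, against 4.88, 6.25 and 4.03 in control arrays. The groups overlapped at all 5, with log2 fold changes of -0.20 to 0.15. NFATC4, known from heart and brain, had 16 probe sets with values between 2.38 and 7.77, 2 of them above the table's median, and log2 fold changes of -0.28 to 0.20. The groups overlapped at 13 of the 16, while 23.9% of all probe sets had no overlap. Of the 16, 10 were lower and 6 higher. Most sets of both genes thus lay below the table's median intensity.

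NFAT5, the osmotic stress factor, was higher in the knockdown arrays at all 4 of its probe sets, by 0.07 to 0.32 on the log2 scale. At the brightest, 11757943_s_at, it measured 226, 233 and 245 in knockdown arrays, against 213, 216 and 183 in control arrays (0.21 ± 0.10). At 11738447_a_at it measured 70.0, 68.5 and 67.4, against 59.8, 61.7 and 55.3 in control arrays (0.22 ± 0.09). The groups did not overlap at these 2 sets, with knockdown above control, as at 12.1% of all probe sets. They overlapped at the other 2, where control replicate 1 was the highest array. None of the 4 passed the threshold, and 1 of them turned lower without control 2.

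The catalytic chains of calcineurin were near their control levels. PPP3CA, the A-alpha chain, was higher at all 4 probe sets, by 0.09 to 0.23 on the log2 scale. At 11722847_s_at it measured 141, 158 and 146 in knockdown arrays, against 132, 128 and 119 in control arrays (0.23 ± 0.09), and the groups did not overlap. At 11722848_a_at it measured 105, 115 and 107, against 106, 103 and 84.1 in control arrays, and they did. At 2 of the 4 PPP3CA sets every knockdown value lay above every control value, as at 12.1% of all probe sets. None of its sets passed the threshold.

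PPP3CB, the A-beta chain, had 2 probe sets higher and 2 lower. The set 11761497_a_at gave 33.4, 33.4 and 33.7 in knockdown arrays, against 27.8, 28.6 and 29.7 in control arrays (0.22 ± 0.08), without overlap. The brightest set, 11717221_s_at, gave 54.6, 59.3 and 60.8 in knockdown arrays, against 57.5, 72.5 and 66.2 in control arrays (-0.16 ± 0.11), with overlap. The sets of this gene thus disagreed in direction, and none passed the threshold. PPP3CC, the A-gamma chain, had 1 probe set, which gave 18.1, 21.7 and 19.5 in knockdown arrays, against 18.4, 20.3 and 17.8 in control arrays (0.07 ± 0.10).

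RCAN2, the relative of RCAN1, was dim at all 3 of its probe sets, with values between 2.16 and 4.62. At the brightest, 11719672_a_at, it measured 3.96, 4.42 and 4.62 in knockdown arrays, against 3.91, 4.01 and 4.02 in control arrays (0.12 ± 0.09). The groups overlapped at all 3. Shifting the arrays to a common median or repeating quantile normalization left the count of higher and lower sets as given for PPP3CA, PPP3CB, PPP3CC, NFAT5, NFATC3, RCAN1, RCAN2 and NFATC2. NFATC1 had 2 sets lower and 3 higher, but 3 lower and 2 higher with repeated quantiles, and NFATC4 had 9 lower and 7 higher at a common median. The median of all probe sets was 0.0085 and 0.007 in these scalings.

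**Figure D3:**
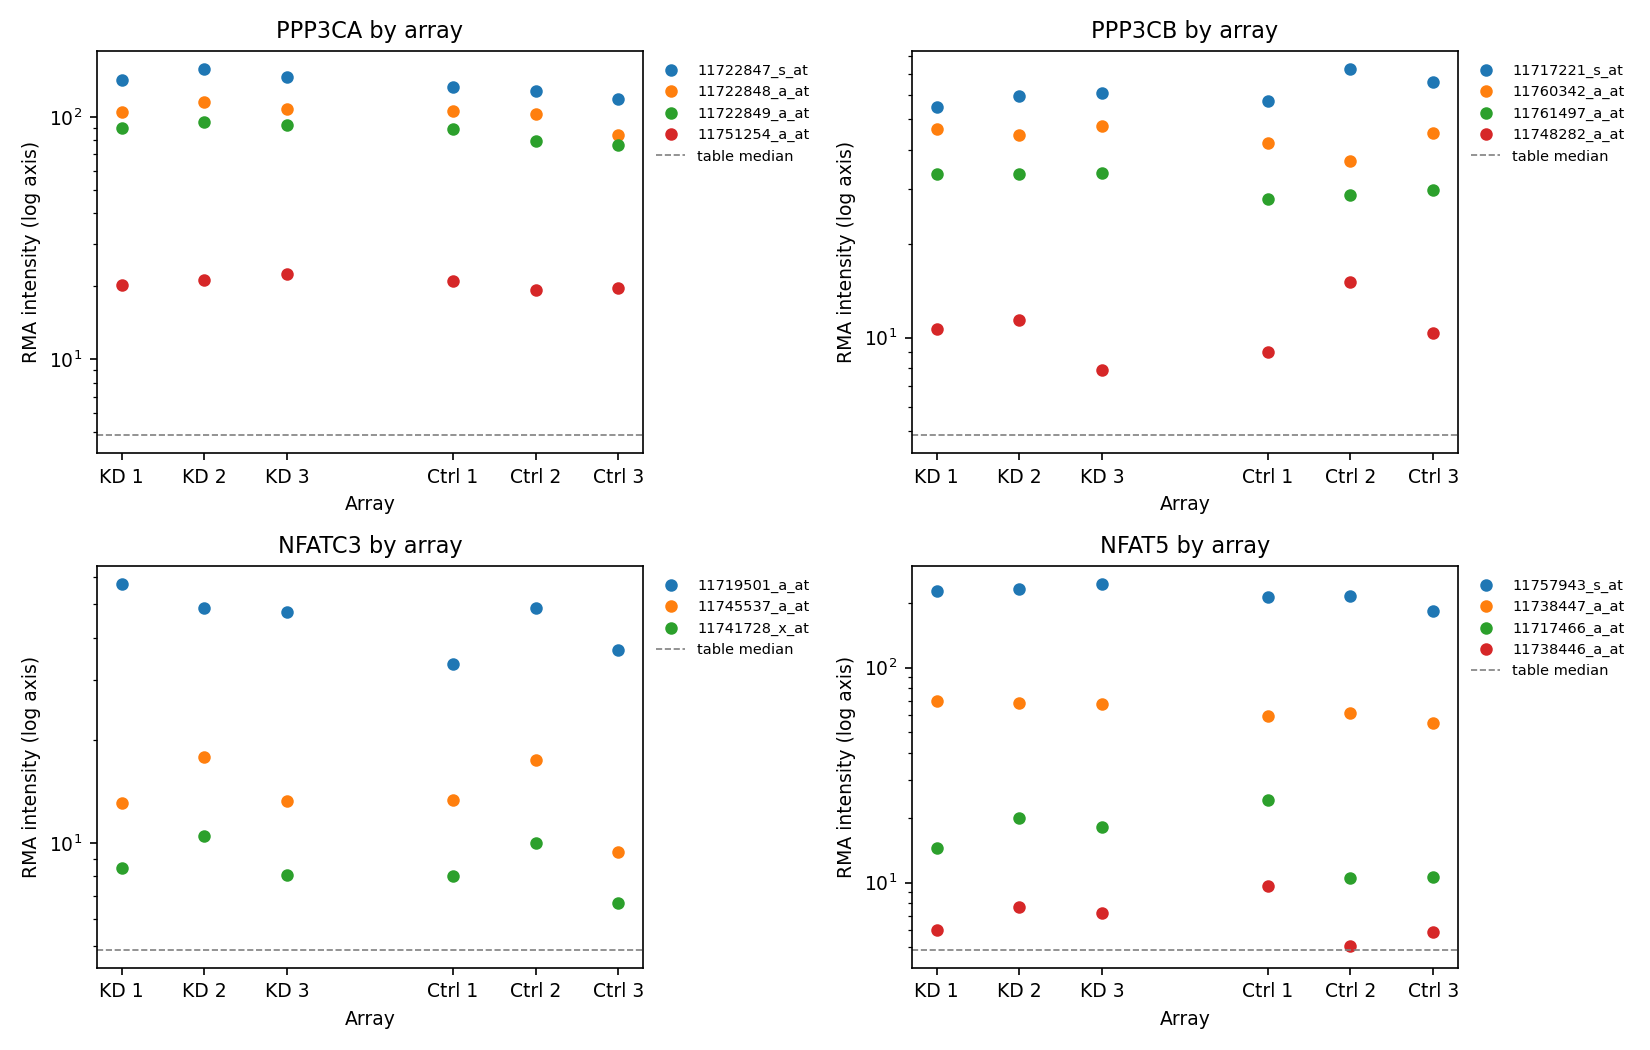
RMA intensity (y axis, log scale) of PPP3CA, PPP3CB, NFATC3 and NFAT5 in each array, 1 point per array and probe set, with knockdown arrays (KD) left of control arrays (Ctrl). The dashed line is the table's median probe set. Groups are close to each other throughout: no log2 fold change exceeds 0.38.

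Other genes of the pathway were read from 7 lists of 97 genes, none of them members, of which 86 had a probe set with 1 symbol, 264 sets in all. By limma 14 of the 264 rose and 16 fell, 11.4% of them, against 4.43% of the table, 1.98% higher and 2.46% lower. The lists were chosen with earlier results of these data known, so their shares are given as a description. Their sets also tended to be bright. With the lowest 50% of probe sets left out, 166 of the 264 remained. Of these 33 were called, against 2528 of 24647 in the table. The 30 called sets of the fit of all probe sets belonged to 19 genes, and in 2 of these every probe set was called. Of the 30 calls, 8 held in each of the 6 fits that left out 1 array, those of F3, DYRK2, MAF, MEF2C and CXCL8, and 16 held only in the fit without control 2. Without control 2, 28 rose and 39 fell, against 6.51% and 6.88% of the table. These shares of the table are the background for each list below. At an unadjusted p under 0.05 it is 9.75% higher and 9.74% lower. A range in brackets after a call below gives the log2 fold change over all 6 fits that left out 1 array.

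Among calcineurin subunits and regulators outside the members, 1 of 31 probe sets rose, 1 fell and 29 were not called, with a median log2 fold change of -0.0021. The called share of this list was 6.45%, against 4.43% of the table. RCAN3, the third RCAN protein, fell at 1 of its 3 sets, with 3.10, 3.47 and 3.26 in knockdown arrays, against 4.60, 4.85 and 4.27 in control arrays (log2 -0.48 ± 0.09 SE, limma adjusted p = 0.0266). The level lay below the table's median. CIB1, a calcium-binding protein reported to bind the calcineurin B chain in mouse heart, rose to 261, 263 and 275 in knockdown arrays, against 196, 201 and 215 in control arrays (0.39 ± 0.08, limma adjusted p = 0.0415). Both calls held only without control 2 among the fits that left out 1 array (-0.53 to -0.44 and 0.36 to 0.43). Without control 2, 4 sets of the list rose and 1 fell.

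In the list of calcium entry and release, 3 of 41 probe sets rose, 2 fell and 36 were not called, with a median of 0.04. The IP3 receptors release calcium from the endoplasmic reticulum. ITPR2 fell at 1 of 3 sets, with 7.34, 7.31 and 6.72 in knockdown arrays, against 12.6, 9.58 and 12.0 in control arrays (-0.67 ± 0.12, limma adjusted p = 0.0196). ITPR1 fell at 1 of 3 sets, with 3.16, 3.81 and 4.34 in knockdown arrays, against 8.22, 5.08 and 6.58 in control arrays (-0.80 ± 0.18, limma adjusted p = 0.0457). Control 2 was the lowest control in both.

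A few sets of calcium pumps passed the test as well. ATP2A2, the pump that refills the endoplasmic reticulum, rose at 1 of 6 sets, with 74.5, 73.4 and 77.3 in knockdown arrays, against 55.6, 54.0 and 57.2 in control arrays (0.43 ± 0.08, limma adjusted p = 0.0249). ATP2B4, a plasma membrane calcium pump known to bind calcineurin, rose at 2 of 5 sets, the brighter with 112, 112 and 119.8 in knockdown arrays, against 77.5, 94.2 and 71.5 in control arrays (0.50 ± 0.11, limma adjusted p = 0.046). The second set gave 0.47 ± 0.09 (limma adjusted p = 0.029). The calls of ITPR1, ITPR2, ATP2A2 and the brighter ATP2B4 set held only without control 2 (ranges over all 6 fits -0.98 to -0.63, -0.79 to -0.59, 0.41 to 0.45 and 0.42 to 0.62). The second ATP2B4 set held only without control 1 or 2 (0.44 to 0.53). Without control 2 the list had 3 sets that rose and 2 that fell, and with log2(intensity + 10) 2 that rose and 1 that fell, with ITPR1 and the brighter ATP2B4 set no longer called.

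Among NFAT kinases and transport factors, 3 of 49 probe sets rose, 0 fell and 46 were not called by limma, with a median of -0.01. The called share was 6.12%, against 4.43% of the table. At an unadjusted p under 0.05, 8 were higher and 5 lower, against 9.75% and 9.74% of the table. All 3 called sets belonged to DYRK2, a kinase that phosphorylates NFATC proteins in the regulatory region and opposes their entry into the nucleus. At 11724612_a_at it measured 97.4, 90.8 and 91.1 in knockdown arrays, against 41.4, 41.8 and 48.1 in control arrays (1.09 ± 0.09, limma adjusted p = 0.00107), and the call held in all 6 fits without 1 array. The sets 11724611_a_at (0.85 ± 0.14, limma adjusted p = 0.0152) and 11758911_at (0.81 ± 0.13, limma adjusted p = 0.0148) rose as well. The first of these kept its call only without control 2 (0.75 to 1.02) and the second only when a control was left out (0.69 to 0.94). The fourth DYRK2 set was not called. Without control 2, 7 sets of the list rose and 8 fell, against 6.51% and 6.88% of the table.

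Among DNA-binding partners and coactivators, 1 of 50 probe sets rose, 5 fell and 44 were not called, with a median of 0.01. MEF2C, a calcium-regulated transcription factor, fell at 2 of 4 sets. At 11723215_s_at it measured 4.47, 4.30 and 5.10 in knockdown arrays, against 9.85, 9.52 and 9.52 in control arrays (-1.06 ± 0.09, limma adjusted p = 0.00118). MAF, a partner of NFAT at the interleukin-4 promoter in T cells, fell at 2 of 4 sets. At 11733088_at it measured 9.11, 9.27 and 9.28 in knockdown arrays, against 19.9, 17.1 and 22.2 in control arrays (-1.09 ± 0.11, limma adjusted p = 0.00182), and at 11733087_a_at the fold change was -0.86 ± 0.11 (limma adjusted p = 0.00546). Control 2 lay close to the other controls for both genes, and these calls held in all 6 fits that left out 1 array.

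The AP-1 subunit FOSL2 rose at 1 of 5 sets, with 24.8, 26.9 and 29.0 in knockdown arrays, against 15.6, 17.4 and 13.3 in control arrays (0.81 ± 0.12, limma adjusted p = 0.0104), and lost its call without knockdown replicate 2 or 3 (0.70 to 0.90). FOS, named after its value was seen, fell at 1 of 4 sets (-0.54 ± 0.10, limma adjusted p = 0.0203), a call kept only without control 1 or 2 (-0.59 to -0.46) and lost with log2(intensity + 10). Without control 2, 4 sets of the list rose and 13 fell.

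Genes reported as NFATC targets in T cells, osteoclasts or tumour cells had 2 of 55 probe sets that rose, 8 that fell and 45 not called, with a median of -0.04. F3, tissue factor, rose at 2 of 3 sets. At 11721291_a_at it measured 74.4, 67.7 and 76.5 in knockdown arrays, against 24.4, 31.3 and 24.4 in control arrays (1.46 ± 0.12, limma adjusted p = 0.000821), and at 11721290_a_at the fold change was 1.55 ± 0.11 (limma adjusted p = 0.000443). Both calls held in all 6 fits. The chemokine CXCL8 fell at all 3 of its sets, the most at 11754026_a_at, with 5.73, 5.40 and 4.25 in knockdown arrays, against 10.4, 10.6 and 12.7 in control arrays (-1.13 ± 0.13, limma adjusted p = 0.00431), a call that held in all 6 fits. Its brightest set, 11718841_s_at (-0.79 ± 0.11, limma adjusted p = 0.0085), lost its call without knockdown replicate 1 or 3. The set 11763226_x_at (-0.71 ± 0.11, limma adjusted p = 0.0122) lost its call when any knockdown array was left out.

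ENPP2, autotaxin, which makes lysophosphatidic acid, fell at 2 of 4 sets. At 11722778_s_at it measured 3.04, 2.83 and 3.79 in knockdown arrays, against 15.9, 5.69 and 19.6 in controls 1, 2 and 3 (-1.92 ± 0.39, limma adjusted p = 0.0323), and 11717672_s_at gave -1.91 ± 0.39 (limma adjusted p = 0.0312). As for RCAN1, control 2 lay between the other controls and the knockdown arrays, and the calls held only without control 2 (-2.46 to -1.57 and -2.45 to -1.58). Of the remaining calls, named after their values were seen, NR4A1 fell at 2 of 7 sets (-0.63 and -0.48) and OSCAR at 1 of 2 (-0.58), each called only without control 2 among the fits that left out 1 array. Without control 2, 2 sets of the list rose and 14 fell, and with log2(intensity + 10) 2 rose and 4 fell, with both ENPP2 sets, 1 NR4A1 set and OSCAR no longer called (ENPP2 -0.79 and -0.78). F3 and CXCL8 thus moved opposite ways within the list.

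Osmotic target genes of NFAT5 had 3 of 24 probe sets that rose, 0 that fell and 21 not called by limma, with a median of 0.08. At an unadjusted p under 0.05, 9 of the 24 were higher and 0 lower, against 9.75% of the table higher and 9.74% lower. With log2(intensity + 10) in place of log2(intensity), limma called 0 of the 24, with 7 higher and 0 lower at an unadjusted p under 0.05. S100A4, a calcium-binding protein, rose at 2 of 3 sets. At 11718064_a_at it measured 1081, 1130 and 1191 in knockdown arrays, against 599.9, 928 and 641 in control arrays (0.68 ± 0.16, limma adjusted p = 0.0494), and 11756146_x_at gave 0.56 ± 0.12 (limma adjusted p = 0.0431). HSPA4L, a heat shock protein induced by salt, rose at 1 of 3 sets, with 7.70, 7.17 and 6.89 in knockdown arrays, against 3.68, 5.79 and 3.94 in control arrays (0.73 ± 0.16, limma adjusted p = 0.0439). Control 2 was the highest control in each, and the calls held only without it (0.56 to 0.87, 0.47 to 0.70 and 0.60 to 0.93). Without it 6 sets rose and 0 fell.

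Of other calcineurin substrates, 1 of 14 probe sets rose, 0 fell and 13 were not called by limma, with a median of -0.04. The called share was 7.14%, against 4.43% of the table. At an unadjusted p under 0.05, 2 were higher and 1 lower, against 9.75% and 9.74% of the table. BAD, a pro-apoptotic protein that calcineurin dephosphorylates, rose at 1 of 2 sets, with 50.8, 46.6 and 50.5 in knockdown arrays, against 35.6, 39.9 and 36.8 in control arrays (0.40 ± 0.09, limma adjusted p = 0.0447). It was called only without control 2 among the fits that left out 1 array (0.36 to 0.45). Without control 2, 2 sets of the list rose and 1 fell.

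**Figure D4:**
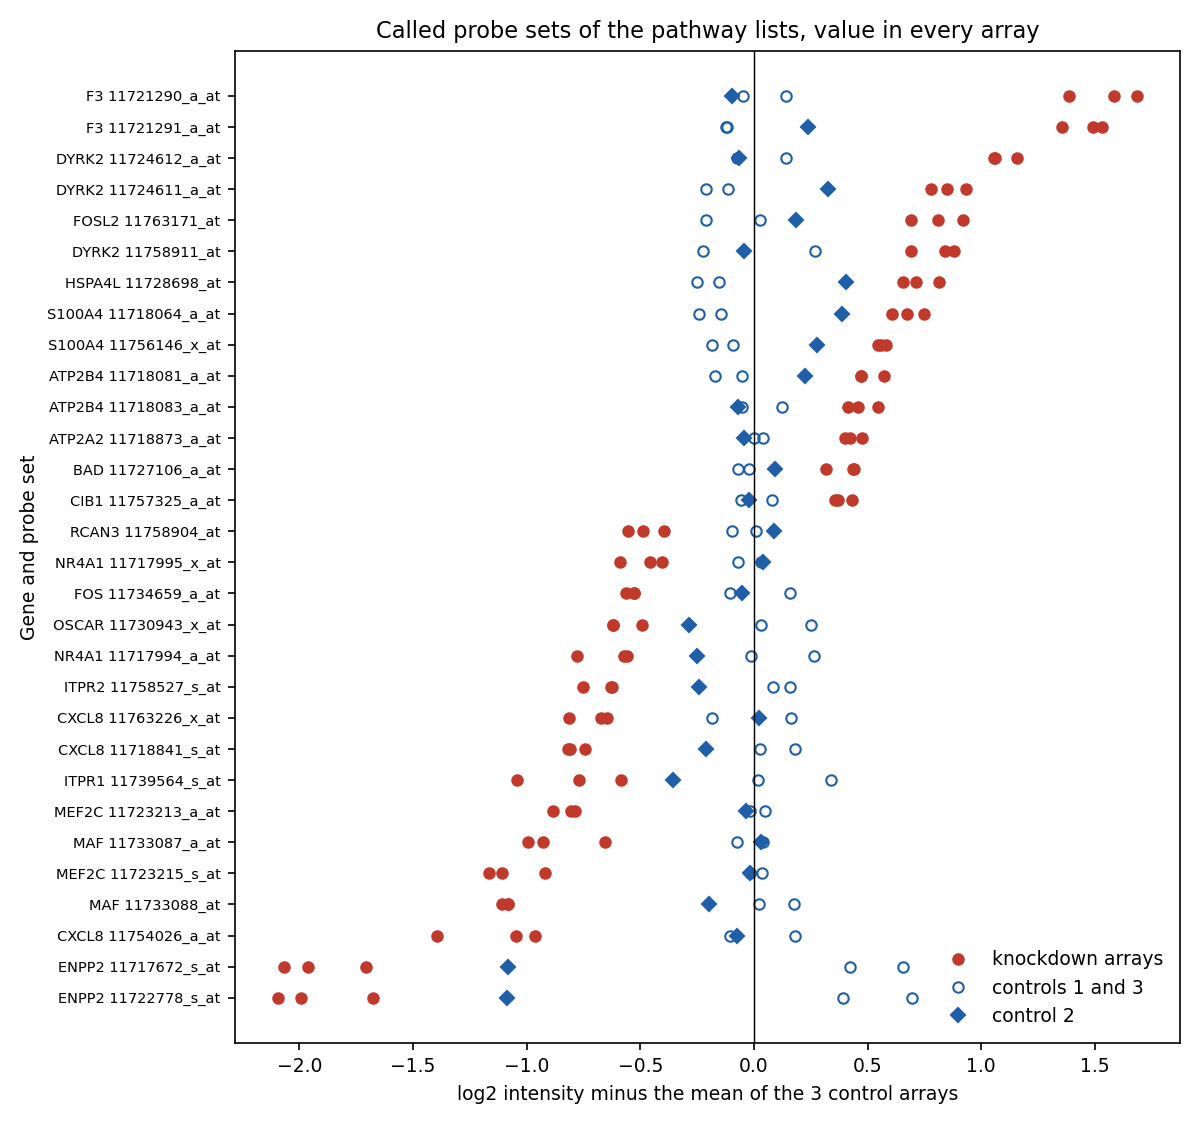
Log2 intensity minus the mean of the 3 control arrays (x axis) for the 30 called probe sets of the pathway lists, 1 point per array, knockdown arrays in red, controls 1 and 3 as open circles and control 2 as a diamond. Groups do not overlap in any row, and control 2 lies between the other controls and the knockdown arrays in several of them, for example for ENPP2 (5.69 against 15.9 and 19.6 in the other controls).

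The probe sets nearest in pattern to the members that moved were found over the 6 arrays, by the root mean square difference of log2 values centred on their mean. Nearest to the bright NFATC2 set were the neural crest factor TFAP2B, HMCN1, MGP, CDH19 and TMEM47, at 0.27 to 0.38. CDH19 measured 16.3, 17.5 and 16.9 in knockdown arrays, against 96.0, 66.8 and 106.6 in control arrays. Nearest to the brightest RCAN1 set were TUBE1, DDR2, TMTC2, FKBP9 and HOXB9, at 0.05 to 0.11. The collagen receptor DDR2 measured 132, 143 and 150.1 in knockdown arrays, against 543, 196 and 526 in control arrays, with control 2 near the knockdown arrays as for RCAN1. The values come from the same 6 arrays as those of the members, and the likeness is a description of them.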

How the data were processed

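RNA of 3 knockdown and 3 control replicates was hybridised to 6 arrays. The authors used RMA, per the submitters' processing notes, which name no version, and deposited 1 intensity for each probe set. The values show that these intensities are linear, not log2. RMA corrects background, normalizes quantiles and summarises probes, and it compresses folds of dim sets. Detection calls and scan batches were not used here, and the number of arrays limits precision.

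Log2 of the intensity was taken without a pseudocount. Of 49293 probe sets, 44988 had 1 gene symbol, 1832 several and 2473 none. Symbols were checked through Entrez identifiers against RefSeq (GRCh38.p14), which changed 0 and left 27 unmatched. Knockdown was compared with control in R 4.3.3 with limma 3.58.1 (functions lmFit and eBayes, no trend) on every probe set, without a filter, with Benjamini-Hochberg adjustment over all of them and a threshold of 0.05. On simulated arrays with 49293 probe sets, limma recovered 14%, 80% and 100% of 50 sets each changed by 0.5, 1 and 2 on the log2 scale. Noise was drawn independently for each probe set and array. A shift of 1 array shared by many sets, as in control 2, was not simulated, so these shares do not give the power of this contrast. Tables and figures were made in Python 3.11.15 with numpy 2.4.6, pandas 2.3.3 and matplotlib 3.10.9.

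The members and the gene lists were chosen with earlier results of these data known. The rule named MAP4K5, every member, and of each list the called probe sets that rose most and fell most, at most 3 each way. It also named the 5 genes nearest in pattern to NFATC2 and to RCAN1. The fits were repeated with array weights, an intensity trend, the replicate numbers as a block, other scalings, log2(intensity + 10), leaving out the lowest 25% or 50% of probe sets, sets with 1 symbol, the brightest set of each gene, leaving out IDs ending in _x_at or _s_at, and leaving out each array. The values against control 2 alone were chosen after seeing the data. Array coordinates were not used here.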

Additional observations from a re-analysis of the deposited data

How the results depend on the processing

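MAP4K5 kept its direction and its call under every alternative run, with log2 fold changes of -2.01 to -1.95 over the fits without 1 array and -1.56 with log2(intensity + 10). The count of members called was 1 of 49 in the fit of all arrays. It was 4 with the replicate block, 5 with a trend and 6 with array weights, all lower and adding RCAN1 sets, and 2 with log2(intensity + 10), where a PPP3CB set was called higher. It was 2 of 10 genes at the brightest set of each gene (NFATC2 and RCAN1) and 0 of 29 sets by limma without IDs ending in _x_at or _s_at, since the bright NFATC2 set has such an ID (of the 29, 3 were higher and 3 lower at an unadjusted p under 0.05). Leaving out 1 array gave 1 to 7, with 7 without control 2. The count over the pathway lists was 30, 51 with array weights, 18 of 86 genes at the brightest set of each gene and 9 to 67 over the fits without 1 array. Over the whole table it was 2186, 4652 with array weights, 1420 of 18132 genes at the brightest set of each gene, 1367 of 34921 without IDs ending in _x_at or _s_at and 391 to 6599 over the fits without 1 array. Fewer sets are tested, by construction, at the brightest set of each gene and without _x_at or _s_at IDs; the cause of the other shifts was not tested. Replicate numbers were not shown to pair the arrays: the deviations of same-numbered arrays correlated at -0.1, 0.032 and 0.095, and 1 of 3 knockdown arrays correlated best with the control of its own number. The replicate block gave 1990 over the table and 26 over the pathway lists. Under it the list of calcium entry and release had 0 sets that rose (5 higher at an unadjusted p under 0.05) and 1 that fell, ITPR2, so the calls of ATP2A2, ATP2B4 and ITPR1 were lost. The calcineurin regulators had 0 that rose (4 higher unadjusted) and 1 that fell, and the other substrates 0 called by limma (2 higher and 1 lower unadjusted). Among the single probe sets with values here, none changed sign while called under any alternative run. Signal limits NFATC1, NFATC4 and RCAN2, whose sets lie mostly below the table's median.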
